A study of Mus musculus with 8 samples.

Results

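The genes described here are 10 adhesion receptors of the left ventricle, namely Adgrf5, Adgrl1, Adgrl2, Adgrl3, Adgrl4, Adgrg1, Adgra2, Adgra3, Adgre5 and Adgrd1. They were taken by name, as a given list of adhesion G protein-coupled receptor genes that includes the targeted gene Adgrf5, and all 10 were found among the 55487 gene identifiers of the files. RNA-seq was made from left ventricles of C57BL/6 mice at 12 weeks of age. The 4 KO samples carry the label CM-ADGRF5-KO and the genotype GPR116-/- (myocyte-specific), where GPR116 is the older name of ADGRF5. The 4 comparison samples are titled NLC with the genotype wild-type, and each group held 2 males (replicates 1 and 2) and 2 females (replicates 3 and 4). For neither the promoter that drives the deletion in myocytes, nor the deleted exons, nor the alleles of NLC mice is there a statement in the sources used here.

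Adhesion receptors combine a long extracellular region, which binds matrix or neighbouring cells, with the membrane-spanning region of a G protein-coupled receptor. Most are cut by their own GAIN domain during synthesis, and the stub left on the membrane part can act as a tethered agonist. In blood vessels the family is known for roles in endothelial barrier and sprouting, in leukocytes for adhesion, and in neurons for synapse formation. ADGRF5 is known from lung, where it restrains surfactant secretion by alveolar epithelium, and from vascular endothelium. The series title places it in cardiac homeostasis through Gαq in cardiomyocytes, and the comparison asks what changes in the ventricle when cardiomyocytes lack it.

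Adgrf5 (ENSMUSG00000056492) lies on the plus strand at chr17:43360451-43459557 of GRCm38 and has 2 RefSeq start sites, 29 kb apart. A gene-level count sums transcripts from both starts, so the 250 bases before each of them are shown. Adgrl4, an endothelial receptor (chr3:151437887-151545086, plus strand), and Adgrl1, a latrophilin (chr8:83900105-83941954, plus strand), are shown beside them as family members with fold changes of opposite sign, neither of which passed the test. All 4 windows hold 0 bases of annotated exons. The letters CGGAA, or TTCCG on the other strand, are part of the site that ETS factors recognise and stand in capitals where a script found them. Sequences are from RefSeq on GRCm38.p6 and run 5′ to 3′ on the plus strand.
Adgrf5, first start, chr17:43360181-43360430: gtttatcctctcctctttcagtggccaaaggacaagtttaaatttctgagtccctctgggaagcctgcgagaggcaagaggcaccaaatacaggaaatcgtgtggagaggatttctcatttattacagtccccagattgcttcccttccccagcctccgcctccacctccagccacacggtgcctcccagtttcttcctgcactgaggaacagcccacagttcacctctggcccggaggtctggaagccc
Adgrf5, second start, chr17:43389216-43389465: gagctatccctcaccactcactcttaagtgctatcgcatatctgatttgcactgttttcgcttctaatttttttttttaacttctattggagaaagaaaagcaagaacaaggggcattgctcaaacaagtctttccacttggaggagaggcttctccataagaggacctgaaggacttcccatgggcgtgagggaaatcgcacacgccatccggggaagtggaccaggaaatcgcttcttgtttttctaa
Adgrl4, chr3:151437632-151437881: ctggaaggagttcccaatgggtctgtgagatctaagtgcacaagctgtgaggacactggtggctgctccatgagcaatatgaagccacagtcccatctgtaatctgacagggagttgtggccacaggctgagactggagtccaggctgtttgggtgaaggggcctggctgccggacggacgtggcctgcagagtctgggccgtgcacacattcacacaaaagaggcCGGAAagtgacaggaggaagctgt
Adgrl1, chr8:83899848-83900097: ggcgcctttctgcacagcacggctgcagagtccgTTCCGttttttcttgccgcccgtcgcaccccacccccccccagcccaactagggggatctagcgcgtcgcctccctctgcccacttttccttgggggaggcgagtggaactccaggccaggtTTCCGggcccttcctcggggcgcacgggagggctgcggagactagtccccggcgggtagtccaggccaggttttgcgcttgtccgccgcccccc
The letters occurred 0 times before either Adgrf5 start, 1 time before Adgrl4 and 2 times before Adgrl1, and 25.2% of 32851 such windows in the genome hold them. The match is a description of the letters in these windows, and 0 matches do not show that a window lacks ETS sites. RefSeq windows were found for 7 of the 10 receptors, 11 windows in all, of which 4 hold the letters. Unlike the windows shown, the rest each hold 3 to 250 bases of annotated exons. The Adgrl3 windows at chr5:81020321-81020570 and chr5:81020502-81020751 overlap each other, so the 11 are not independent.

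Reads assigned to genes numbered 26.6 to 39.6 M (M, 1e6 reads) in KO and 25.3 to 28.3 M in NLC. The 6 cardiomyocyte markers summed to 48769 to 59411 CPM (counts scaled to library size) in KO and 44633 to 55680 CPM in NLC. Atrial transcripts (Sln, Myl7, Nppa and Myl4) summed to 359.5 to 1436 CPM in KO and 381.0 to 6003 CPM in NLC, with NLC replicate 4 the highest and KO replicate 3 next. The lung markers Sftpc, Sftpa1 and Scgb1a1 summed to at most 0.0692 CPM in KO and 0.0408 CPM in NLC, and Sftpa1 was at 0 in all libraries. Where gene reads are shared with a gene on the opposite strand they may not be separated, because the strand setting of the counting is not given. This touches 6 receptors, among them Adgre5, which overlaps Ddx39, and Adgra2, which overlaps Brf2, and leaves Adgrf5, Adgrl4, Adgrg1 and Adgra3 free of it.

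Adgrf5 was the most abundant of the 10 receptors in the ventricle. Levels of different genes were compared as TPM (length-normalised transcript abundance), computed from the counts and the union of annotated exons. Adgrf5 averaged 62.2 TPM over the 8 libraries (55.8 to 67.4 TPM) and made up 25.6% to 29.4% of the summed TPM of 30 adhesion receptor genes in KO and 26.4% to 29.6% in NLC. The leukocyte receptor gene Adgre5, which encodes CD97, followed at 43.0 TPM (37.4 to 52.4 TPM). Next came Adgrg1, which encodes the collagen receptor GPR56, at 31.0 TPM (24.9 to 34.5 TPM), and Adgrl4, also called ELTD1, at 29.8 TPM (22.2 to 35.2 TPM). With the union of exons as the length, Adgrf5 lay above Adgre5, and Adgre5 above Adgrg1, without overlap of their ranges. By contrast, Adgrg1 exceeded Adgrl4 in only 4 of 8 libraries.

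Lower levels, with the union of exons as the length, were found for 4 receptors, of which Adgrl2, the highest, lay 3.10-fold below Adgrl4. Adgrl2 averaged 9.59 TPM, Adgrl1 9.27 TPM, Adgra2 9.20 TPM and Adgra3 7.93 TPM, and each overlapped its neighbour in this order. Adgrl2 and Adgrl1 are latrophilins, receptors of teneurins and FLRT proteins. Adgra2, or GPR124, is a coactivator of WNT7 signalling in brain endothelium, and Adgra3, or GPR125, is its relative. Adgrd1, which encodes GPR133, averaged 2.14 TPM (1.63 to 2.89 TPM), and the neuronal latrophilin gene Adgrl3 averaged 0.115 TPM, 18.6-fold below Adgrd1. With the longest transcript as the length, Adgra3 moved to rank 6, Adgrl1 to 7 and Adgra2 to 8, while the remaining receptors held their ranks. The gaps changed with this length, and Adgrl4 then averaged 27.3 TPM, Adgrl2 18.5 TPM, Adgra3 11.8 TPM, Adgrd1 2.83 TPM and Adgrl3 0.247 TPM. The gaps at the top were smaller, with Adgrf5 at 54.1 TPM, Adgre5 at 44.3 TPM and Adgrg1 at 38.3 TPM. Whether ranges overlap at this length was not examined. By CPM, with no length, Adgrg1 ranked 2, Adgre5 3, Adgra3 7 and Adgra2 8, and the remaining receptors kept their ranks by union length.

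**Figure D1:**
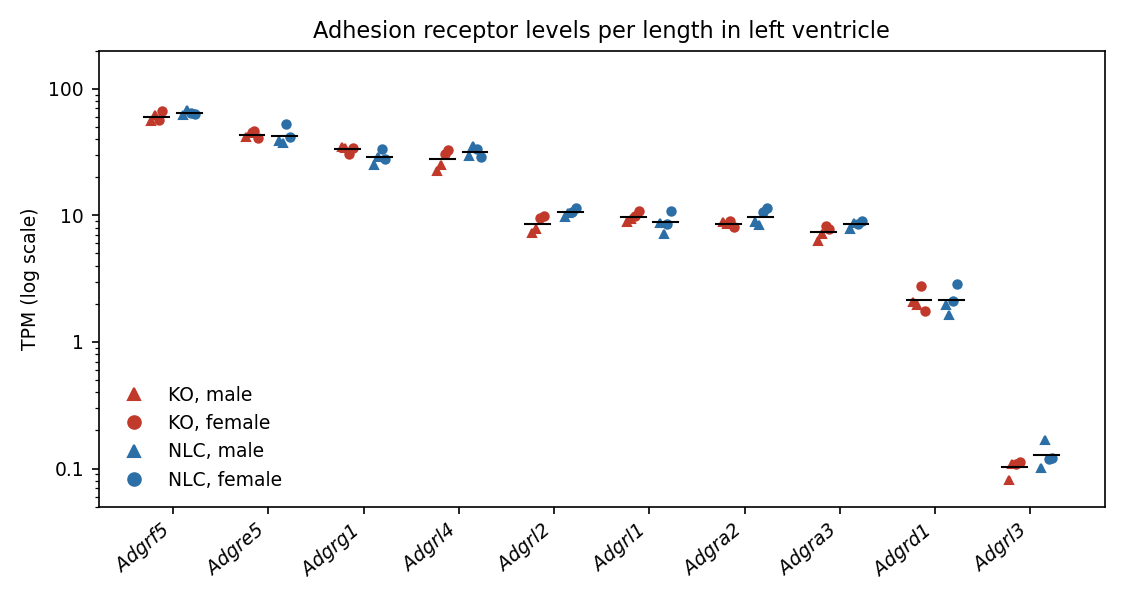
TPM (log scale) of the 10 receptors in each library, ordered by mean level, with KO left of NLC, triangles for males, circles for females and bars for group means. Adgrf5 lies at 55.8 to 67.4 TPM, a group of 4 receptors from Adgrl2 to Adgra3 has means of 7.93 to 9.59 TPM, and Adgrl3 has a mean of 0.115 TPM.

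Adgrf5 stood at similar levels in ventricles of both groups, although the KO samples are labelled as lacking it in myocytes. It was measured at 223.2, 230.9, 203.0 and 239.8 CPM in KO replicates 1 to 4, against 233.3, 257.0, 222.3 and 218.2 CPM in NLC replicates 1 to 4. The groups overlapped widely, with both the lowest value and the second highest in KO. Means were 224.2 ± 15.7 CPM in KO and 232.7 ± 17.4 CPM in NLC (SD, n = 4 each), a log2 fold change of -0.05 (SE 0.0754, edgeR adjusted p = 0.782). Its 95% interval reached from -0.22 to 0.12, and an exact two-sided permutation test over 70 assignments gave p = 0.514, where the smallest p was 0.0286. Counts cover the entire gene and several cell types, and fewer cells of a type and less RNA per cell cannot be told apart in whole tissue, so these counts cannot serve as a check of the deletion.

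Adgrf5 was then set against 10 endothelial markers of the same library (Pecam1, Cdh5, Tie1, Tek, Kdr, Emcn, Egfl7, Esam, Cldn5 and Eng). These summed to 1141 to 1232 CPM in KO and 1181 to 1402 CPM in NLC. The ratio of Adgrf5 to this sum was 0.181, 0.190, 0.178 and 0.200 in KO replicates 1 to 4, against 0.180, 0.194, 0.159 and 0.185 in NLC replicates 1 to 4. KO and NLC overlapped in this ratio too, and the mean difference was 0.06 on the log2 scale (exact two-sided permutation p = 0.486, n = 4 each). Of the 10 markers 9 had a negative log2 fold change and 0 passed the test by edgeR, with 3 lower at an unadjusted p under 0.05 (Pecam1, Kdr and Emcn). Over all 14695 tested genes 7491 had a negative value and 6.18% were lower at that p.

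**Figure D2:**
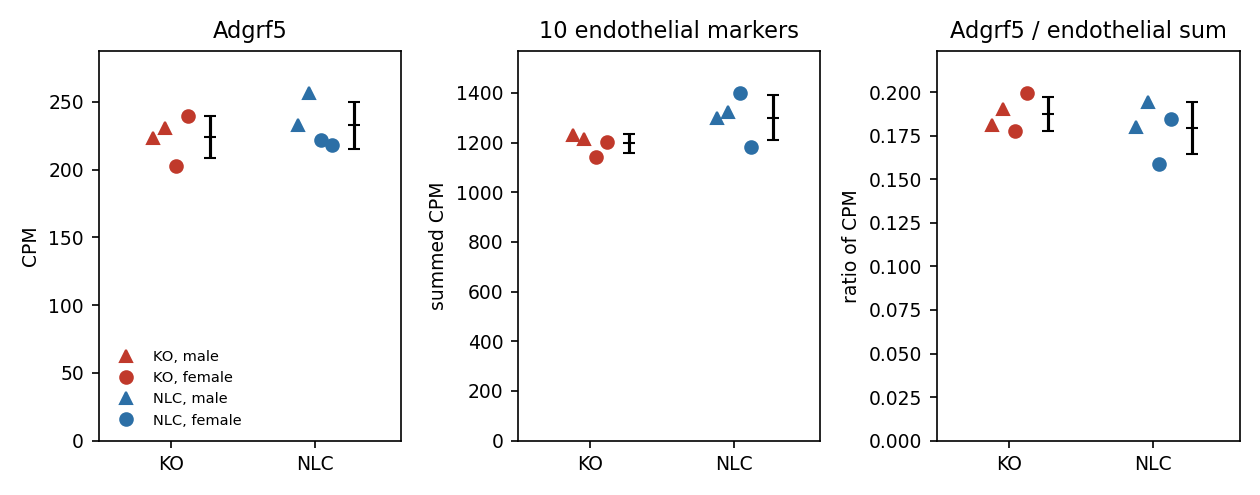
Adgrf5 CPM, summed CPM of the 10 endothelial markers and their ratio in each library, with KO left of NLC, triangles for males, circles for females and bars for mean ± SD. KO and NLC overlap in all 3 panels, and the ratio averages 0.187 in KO and 0.179 in NLC.

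None of the 10 receptors passed the test for KO against NLC over all genes. By edgeR's quasi-likelihood test with Benjamini-Hochberg adjustment 0 of 10 were called, where 0.102% of the 14695 genes tested were called (15 genes), and DESeq2 and limma voom also called 0 receptors. The count of 15 moved with the libraries used, to 0 calls without KO replicate 2, KO replicate 3, NLC replicate 1 or NLC replicate 2, 4 without KO replicate 1 or KO replicate 4, 20 without NLC replicate 4 and 50 without NLC replicate 3, while DESeq2 called 148. At an unadjusted p under 0.05, 3 receptors were found, where 11.9% of all genes were. Lower in KO were Adgrl2 and Adgra3 (2 of 10, 6.18% of all genes), and higher was Adgrg1 (1 of 10, 5.77% of all genes). The median log2 fold change of the 10 was -0.09, with 4 positive and 6 negative, and that of all tested genes was -0.01.

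Among the latrophilins, Adgrl2 was the receptor with the smallest p. Its levels were 45.5, 45.8, 53.6 and 55.3 CPM in KO replicates 1 to 4, against 58.0, 62.9, 58.1 and 62.8 CPM in NLC replicates 1 to 4. Every KO library lay below every NLC library, and the 2 KO males were the lowest. Of the 10 receptors 1 had such groups without overlap, and 6.25% of all tested genes had them in either direction (3.03% lower in KO). The log2 fold change of Adgrl2 was -0.28 (SE 0.0729, edgeR adjusted p = 0.231), with a 95% interval of -0.44 to -0.12. Relative to the endothelial sum the groups overlapped, at 0.0369 to 0.0470 in KO and 0.0414 to 0.0532 in NLC.

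Adgrl1, known as the receptor of the spider toxin α-latrotoxin, had 34.0, 33.5, 33.6 and 36.9 CPM in KO replicates 1 to 4, against 31.3, 25.9, 28.1 and 35.7 CPM in NLC replicates 1 to 4. Here 3 of 4 NLC libraries lay below all KO libraries, and NLC replicate 4 lay among them. This gave a log2 fold change of 0.19 (SE 0.0953, edgeR adjusted p = 0.436). Adgrl3 was counted in only 20 to 31 reads per library and ranged from 0.635 to 0.795 CPM in KO and from 0.750 to 1.26 CPM in NLC. Its log2 fold change of -0.29 had a 95% interval from -0.85 to 0.28, so a difference of moderate size was not detectable at this depth.

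Adgrl4 belongs to the latrophilin branch by sequence and is known from endothelial cells during angiogenesis. It was measured at 45.3, 48.1, 55.8 and 59.5 CPM in KO replicates 1 to 4, against 57.1, 68.2, 58.8 and 50.9 CPM in NLC replicates 1 to 4. The 2 KO males were the lowest of the 8 libraries, while the 2 KO females lay within the NLC range. Over both sexes its log2 fold change came to -0.18 (SE 0.110, edgeR adjusted p = 0.509). It was -0.08 without NLC replicate 2, -0.11 without KO replicate 1 and -0.27 without NLC replicate 4.

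Adgrg1, whose product GPR56 binds collagen III and transglutaminase 2, gave 83.1, 76.3, 65.4 and 73.2 CPM in KO replicates 1 to 4, against 56.6, 66.7, 69.7 and 58.1 CPM in NLC replicates 1 to 4. In KO 3 of 4 libraries lay above all NLC libraries, and KO replicate 3 lay among them. This came to a log2 fold change of 0.24 (SE 0.0920, edgeR adjusted p = 0.353), with a 95% interval of 0.04 to 0.45. Divided by the endothelial sum, Adgrg1 stood at 0.0573 to 0.0674 in KO and 0.0436 to 0.0504 in NLC and was the 1 receptor of 10 whose groups did not overlap in this ratio. By this ratio 10.7% of all tested genes had groups without overlap.

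Adgra3, an orphan receptor, had 22.7, 24.0, 26.7 and 24.95 CPM in KO replicates 1 to 4, against 26.3, 29.9, 26.4 and 28.3 CPM in NLC replicates 1 to 4. Only KO replicate 3 reached into the NLC range, with a log2 fold change of -0.18 (SE 0.0785, edgeR adjusted p = 0.416). Its relative Adgra2 averaged 20.6 ± 1.67 CPM in KO and 22.6 ± 2.12 CPM in NLC (SD, n = 4 each), with overlapping groups and a log2 fold change of -0.13 (SE 0.0929). Adgre5, whose product CD97 binds CD55 on neighbouring cells, averaged 67.6 ± 4.28 CPM in KO and 63.9 ± 7.51 CPM in NLC, a log2 fold change of 0.08 (SE 0.0892). Adgrd1 averaged 7.32 ± 1.41 CPM in KO and 7.13 ± 1.501 CPM in NLC, a log2 fold change of 0.05 (SE 0.169). The edgeR adjusted p-values of Adgra2, Adgre5 and Adgrd1 were 0.558, 0.698 and 0.912.

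**Figure D3:**
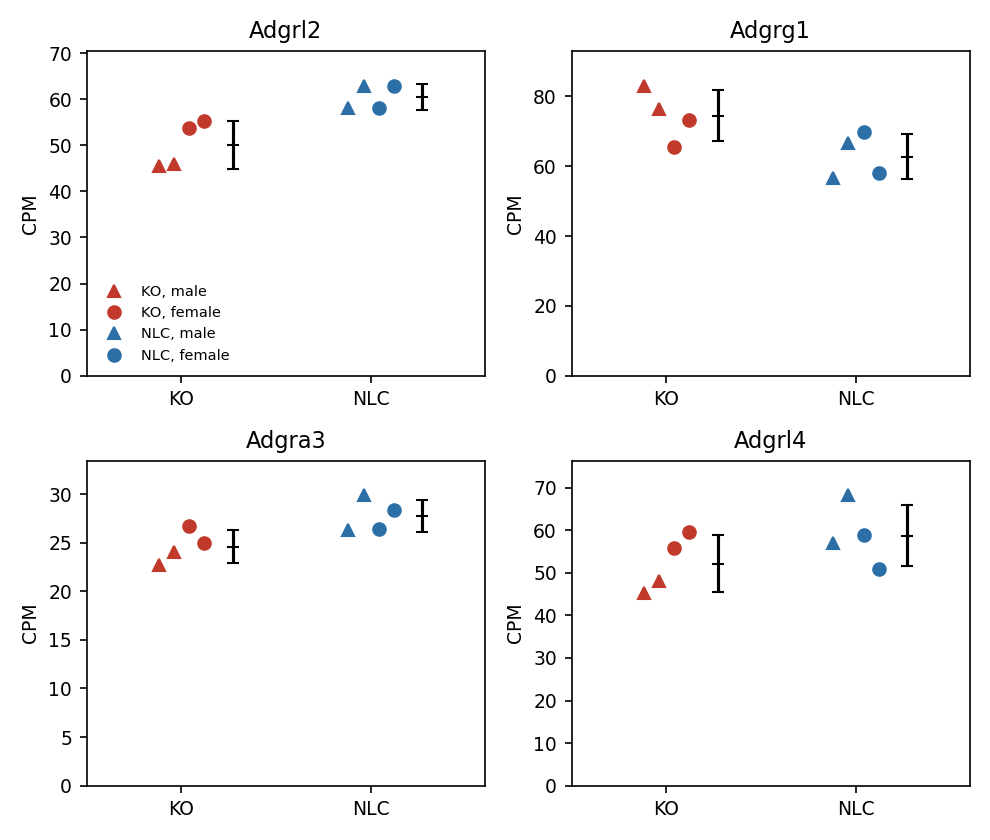
CPM of Adgrl2, Adgrg1, Adgra3 and Adgrl4 in each library, with KO left of NLC, triangles for males, circles for females and bars for mean ± SD. Groups do not overlap for Adgrl2 (at most 55.3 CPM in KO, at least 58.0 CPM in NLC), and both KO males lie below all other libraries for Adgrl2 and Adgrl4.

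The receptors were also compared within each sex, where 2 KO libraries face 2 NLC libraries and all 8 share one estimate of the spread. In males edgeR called 0 of 10 receptors and 0.0408% of all genes. Adgrl4 averaged 46.7 CPM in KO males and 62.6 CPM in NLC males, a log2 fold change of -0.42 (SE 0.113, edgeR adjusted p = 0.179). Adgrl2 averaged 45.7 CPM in KO males and 60.5 CPM in NLC males (-0.41, SE 0.0867, edgeR adjusted p = 0.152). Adgrg1 averaged 79.7 CPM in KO males and 61.6 CPM in NLC males (0.37, SE 0.120, edgeR adjusted p = 0.199). With Adgra3 (-0.27, SE 0.106), 4 receptors reached an unadjusted p under 0.05 in males, where 17.5% of all genes did. DESeq2 called Adgrl2 in males (adjusted p = 0.0418), and edgeR without a low count filter called Adgrl2, Adgrl4 and Adgrg1 (adjusted p = 0.0216, 0.0144 and 0.0471). Over all genes the same fits called 312 of 14695 in males with DESeq2 and 1007 of 27953 without the filter, against 6 with the filter.

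In females the differences were smaller for these 4 receptors. Adgrl4 averaged 57.6 CPM in KO females and 54.9 CPM in NLC females (log2 fold change 0.07, SE 0.113), and Adgrl2 averaged 54.5 CPM in KO females and 60.4 CPM in NLC females (-0.15, SE 0.0864). Adgra2 was the 1 receptor with an unadjusted p under 0.05 in females, at 19.7 CPM in KO and 24.3 CPM in NLC (-0.30, SE 0.110, edgeR adjusted p = 0.969). EdgeR called 0 receptors and 0% of all genes in females (5.12% at an unadjusted p under 0.05), and DESeq2 called 0 receptors and 17 genes. The difference between the sexes was tested itself and gave 0 receptors and 0% of all genes by edgeR (7.46% unadjusted), and 0 receptors and 15 genes by DESeq2. For Adgrl4 this difference was -0.49 (male minus female log2 fold change, SE 0.159, edgeR adjusted p = 0.648), so a difference between the sexes is not shown. Of the 10 endothelial markers, 5 had negative and 5 positive log2 fold changes in males, between -0.54 (Kdr) and 0.40 (Egfl7). In females all 10 were negative, between -0.43 (Cldn5) and -0.07 (Tek), and the part of the markers in the values of Adgrl4 was not tested. The library numbers in the sample descriptions place both KO males before both NLC males, and what followed that order cannot be told apart from genotype there.

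**Figure D4:**
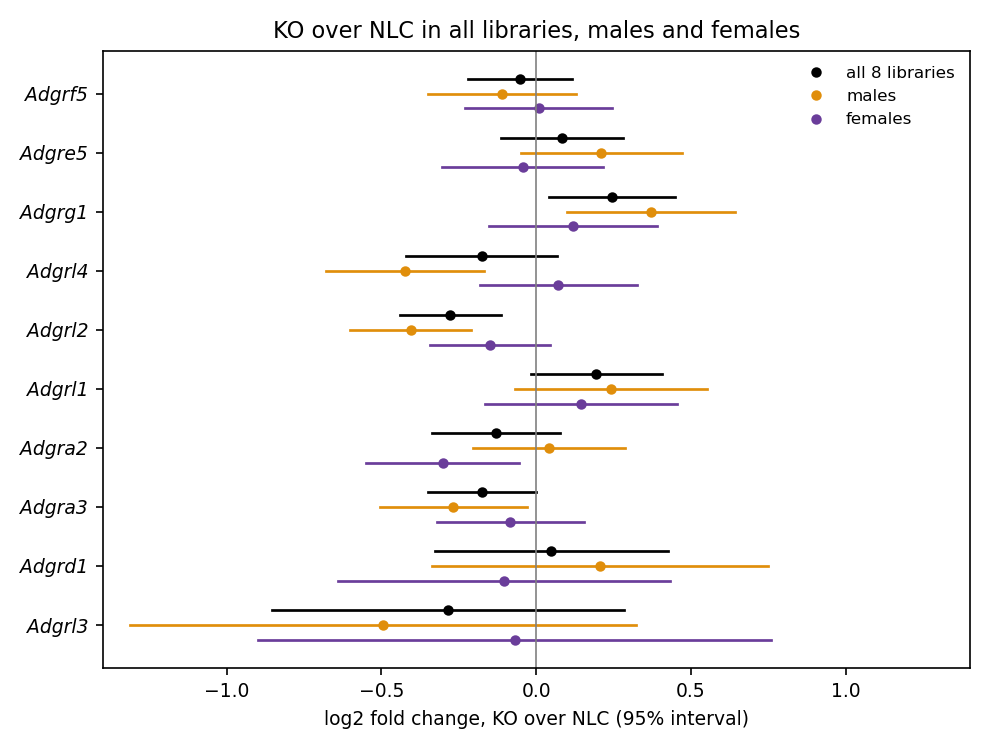
Log2 fold change of KO over NLC with its 95% interval for each receptor, in all 8 libraries (black), males (orange) and females (purple), from the receptor with the highest TPM at the top. Adgrl2, Adgrg1 and Adgra3 have unadjusted intervals clear of 0 over all libraries (Adgrl2 -0.44 to -0.12, Adgrg1 0.04 to 0.45), and the interval of Adgrl4 is clear of 0 in males alone.

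Levels of the 10 receptors in males and females were compared across both genotypes. EdgeR called 0 of 10, where 0.299% of all genes were called, and 0 receptors reached an unadjusted p under 0.05, where 12.8% of all genes did. DESeq2 and limma voom also called 0. Adgrd1 had the largest log2 difference (-0.19, male over female, SE 0.169), and Adgrf5 averaged 236.1 CPM in males and 220.8 CPM in females.

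Fold changes were also set beside the annotated span of each gene. Adgrl3 spans 805.0 kb, Adgrl2 175.0 kb, Adgrl4 107.2 kb and Adgra3 99.1 kb, and all 4 had negative values, whereas Adgrg1, Adgrl1 and Adgre5, with positive values, span 39.5, 41.9 and 18.1 kb. Adgrd1, with a span of 107.8 kb, had a positive value, and Adgra2 (37.9 kb) and Adgrf5 (99.1 kb) had negative ones. Over all tested genes the median log2 fold change was 0.06 for spans under 20 kb, -0.02 for 20 to 50 kb, -0.07 for 50 to 100 kb, -0.10 for 100 to 200 kb and -0.11 for 200 kb or more. The part of gene span in the values of the receptors was not tested.

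**Figure D5:**
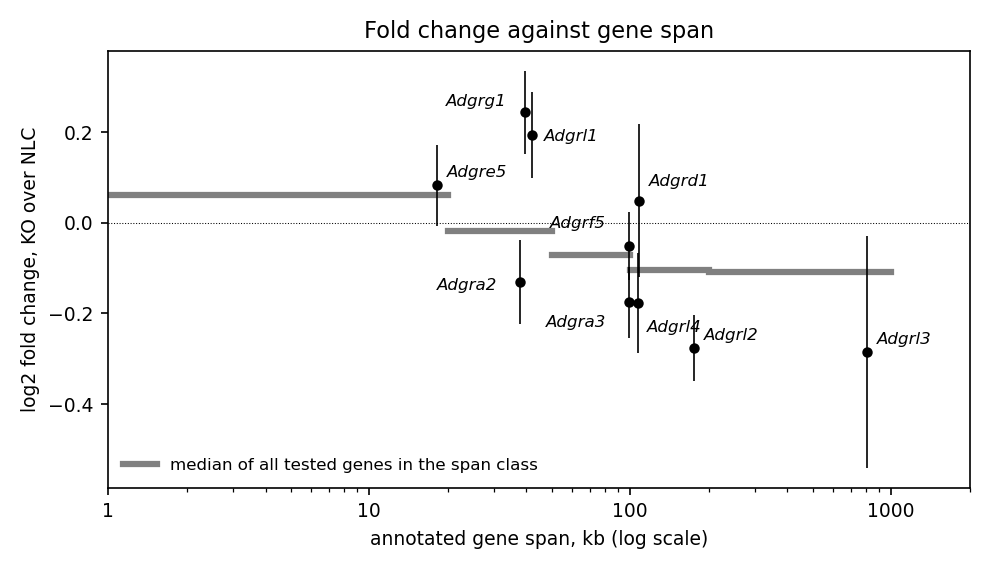
Log2 fold change of KO over NLC of the 10 receptors (points, bars are ± SE) against annotated gene span (log scale), with the median of all tested genes in 5 span classes as grey bars, of which the outer 2 are drawn to the edges 1 and 1000 kb. The medians go from 0.06 under 20 kb to -0.11 at 200 kb or more, and Adgrl2 lies below the median of its class.

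The genes most like 3 of the receptors over the 8 libraries were named by the root mean square difference in centred log2 CPM, among 12976 genes whose mean reached 1 CPM. For Adgrf5 these were Usp22 (0.0275), Eif4b (0.0369), Zfp90 (0.0383), Osgepl1 (0.0384) and Cep63 (0.0397). For Adgrl2 they included Fem1c (0.0266), Msrb3 (0.0344), Prkd3 (0.0469) and Selenot (0.0479), and for Adgrl4 they were Lrif1 (0.0457), Eml6 (0.0583), Thnsl1 (0.0607), Bak1 (0.0649) and Ipo7 (0.0654). These measures rest on 8 libraries of unequal depth, and a shared difference between KO and NLC also makes genes alike. The genes named for Adgrl2 had log2 fold changes between -0.26 (Fem1c) and -0.24 (Prkd3), beside -0.28 for Adgrl2. Among the 10 receptors of the list, Adgra3 was the closest to all 3 of them. It ranked 143 for Adgrl2, 531 for Adgrl4 and 3185 for Adgrf5 among the 12976 genes. The other adhesion receptor genes were not compared in this way.

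The other 20 adhesion receptor genes were mostly scarce. Of these 8 passed the filter on low counts, and 0 of the 8 were called by edgeR or had an unadjusted p under 0.05. Adgre1, which encodes the macrophage marker F4/80, was the most abundant at 10.2 TPM (6.50 to 14.3 TPM). With the union of exons as the length, this range holds all of the Adgrl2 values. The planar polarity cadherins Celsr1 and Celsr2 averaged 2.39 and 1.47 TPM, and Adgrb2, which encodes BAI2, averaged 1.296 TPM. Adgrg3, known from neutrophils, averaged 0.745 TPM, the mononuclear phagocyte gene Adgre4 0.432 TPM, the epididymal receptor gene Adgrg2 0.387 TPM, and Adgrg6, known from Schwann cell myelination, 0.325 TPM. The other 12 genes failed the filter.

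Ligands and partners of the receptors gave 0 calls as well by edgeR with the low count filter. Of 7 teneurin and FLRT genes, which encode latrophilin ligands, 5 were measured, and 1 had a positive and 4 a negative log2 fold change (median -0.26). Flrt2 averaged 3.64 ± 0.185 CPM in KO and 4.75 ± 1.09 CPM in NLC (log2 fold change -0.36, SE 0.141, edgeR adjusted p = 0.364), Tenm3 stood at -0.26 (SE 0.163) and Flrt1 at -1.10 (SE 0.604). Without NLC replicate 4, the library with the most atrial transcripts, the log2 fold change was -0.12 for Flrt1 and -0.10 for Tenm3. EdgeR without a low count filter called Flrt1 (-1.09, adjusted p = 0.0306), where 621 of 27953 genes were called. Of 11 genes around ADGRA2 (the anchor Reck, WNT7 ligands, the receptor Fzd4, LRP5 and LRP6, β-catenin, dishevelled and Dlg1) 9 were measured with a median of -0.03. Wnt7a and Wnt7b had 6 and 8 reads over the 8 libraries. Dvl3 was measured at 55.5 to 66.9 CPM in KO and 50.1 to 54.9 CPM in NLC, without overlap (log2 fold change 0.21, SE 0.0741, edgeR adjusted p = 0.350), while Dlg1 stood at -0.21 (SE 0.0725), Lrp6 at -0.20 (SE 0.0873) and Ctnnb1 at -0.15 (SE 0.0679, groups without overlap).

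Other ligands included both reported partners of ADGRF5. Fndc4, a secreted fibronectin domain protein, had 7.17, 6.64, 6.64 and 7.36 CPM in KO replicates 1 to 4, against 4.76, 4.36, 4.82 and 6.40 CPM in NLC replicates 1 to 4. Every KO library lay above every NLC library, with a log2 fold change of 0.46 (SE 0.130, edgeR adjusted p = 0.267). Groups without overlap, as for Fndc4, Dvl3 and Ctnnb1, were found for 6.25% of all tested genes. Sftpd, which encodes surfactant protein D, had 3 reads in KO and 0 in NLC. Cd55, the ligand of CD97, stood at -0.20 (SE 0.117), and of the 6 measured genes in this list 3 had a positive and 3 a negative value. All 11 genes of a chosen list of Gα subunits were measured, with 3 positive and 8 negative values and a median of -0.08. Gnai3 (-0.18, SE 0.0789) was the 1 Gα gene of 11 with an unadjusted p under 0.05, where 11.9% of all genes had one, and Gna12 stood at -0.11 (SE 0.0699).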

How the data were processed

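The authors deposited raw counts of reads per Ensembl gene for each library, followed by 5 entries that name no gene. STAR, HTSeq, DESeq2 and the build GRCm38 are listed in the submitters' processing notes, and libraries were made with a stranded mRNA kit, per the labels' protocols. The strand setting of the counting is not given in the sources used here, nor are tool versions. Entries naming no gene stayed out of every test and library size. Their shares were 16.8% to 20.3% (not unique), 3.07% to 4.08% (no feature) and 1.26% to 1.38% (ambiguous). Males and females of a group came from separate mice. Nothing says so for the 2 samples of the same sex and genotype. The p-values thus measure the spread between these samples, which may be partly technical.

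Symbols, positions and exon lengths came from GENCODE M21 (GRCm38), which matched 55227 of 55487 identifiers. The test was edgeR 4.0.16 in R 4.3.3: filterByExpr, TMM scaling, glmQLFit and glmQLFTest on sex plus genotype, with Benjamini-Hochberg adjustment over 14695 genes and a threshold of 0.05. It was tested on simulated data, with changes larger than any found for the receptors. Whether it would call changes as small as theirs was not tested. CPM use TMM-scaled library sizes, and a count of 0 allows up to 0.0793 to 0.122 CPM (3 reads per library, counting error only). For contrasts within a sex, each of the 4 sex and genotype classes had its own mean. Alternatives included DESeq2 1.42.0, limma 3.58.1 voom, other scalings and filters, and each library left out. The receptors, gene lists and tests were chosen with earlier results of these data known. Named were all 10 receptors, other family members that passed the filter, at most 4 genes per ligand, partner or Gα list by smallest p, and the 5 genes most like Adgrf5, Adgrl4 and Adgrl2 in pattern, of which 1 is not reported here. Wnt7a, Wnt7b, Sftpd and the promoter letters were chosen after values were seen.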

Additional observations from a re-analysis of the deposited data

Results flagged for a closer look

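A library far from the other 3 of its group was looked for in 38 groups of 4, by the gap to its nearest neighbour as a share of the group's range (limit 0.829). Chance gives about 1 such flag in 20 groups, and 6 were found. Adgre5 was low in KO replicate 4, at 61.2 CPM against at least 69.6 CPM in the other KO libraries (share 0.957), and high in NLC replicate 3, at 75.1 CPM against 59.4 to 61.2 CPM in the other NLC libraries (share 0.884). Adgrl1 was high in KO replicate 4, at 36.9 CPM against 33.5 to 34.0 CPM (share 0.854). Adgrl3 was low in KO replicate 1, at 0.635 CPM against 0.772 to 0.795 CPM (share 0.857), and high in NLC replicate 2, at 1.26 CPM against 0.750 to 0.830 CPM (share 0.844), with 20 to 31 reads per library. Adgre4 was low in NLC replicate 4, at 0.277 CPM against 0.775 to 0.843 CPM (share 0.879), with only 140 reads over all 8 libraries.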

How the results depend on the processing

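The 10 receptors gave 0 calls for KO against NLC, within females, for the difference between the sexes and for male against female under each alternative run. Within males they gave 0 except with DESeq2 (1) and without a low count filter (3). The number of all genes called for KO against NLC was 15, and it was 148 with DESeq2 (86 higher, 62 lower), 621 without a low count filter, 6 without the sex term, 0 with a replicate block, and 0 to 50 when each library was left out. Without NLC replicate 4 and KO replicate 3, an alternative chosen after seeing the data, it was 12. Adgrf5 kept its direction in all 18 alternatives (log2 fold change -0.11 to -0.01), as did its ratio to endothelial markers (0.01 to 0.10 over 10). The log2 fold change of Adgrd1 (0.05) turned to -0.02 without KO replicate 1, -0.058 without KO replicate 3, -0.03 without NLC replicate 2 and -0.01 without NLC replicate 3, and leaving out each library gave -0.058 to 0.20. The cause was not tested. Leaving out each library gave -0.39 (without NLC replicate 1) to -0.07 (without NLC replicate 2) for Adgrl3, -0.20 (without KO replicate 1) to -0.064 (without KO replicate 4) for Adgra2 and 0.044 (without NLC replicate 4) to 0.18 (without NLC replicate 3) for Adgre5, none of which passed the test. The other 8 receptors kept their direction, with Adgrl2 at -0.33 to -0.23 (adjusted p 0.0773 to 0.571). Adgrl3 fails the filter of at least 1 CPM in 4 libraries and gives no value there. Replicate numbers were not treated as pairs in the main test. Same-numbered libraries had correlations of 0.335, 0.191, -0.213 and 0.122 in their deviations from group means, and 1 of 4 KO libraries was most like its own number. Sex was not removed from these deviations, and 4 correlations cannot settle whether the numbers pair the samples. With 4 libraries per group, depth limits Adgrl3 most.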

Other observations

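Among the 12 adhesion receptor genes that failed the filter, Adgrg4 and Adgrg7 had 0 reads in all 8 libraries, and Adgrb3 had 1 read in KO and 0 in NLC. Adgrv1, the very large Usher syndrome receptor, had 46 reads in KO and 17 in NLC, and Adgrf2 had 41 reads in KO and 20 in NLC. Such sums are not scaled to depth, and in CPM the groups overlapped for both genes. Adgrv1 had 0.225 to 0.456 CPM in KO and 0.0750 to 0.286 CPM in NLC. For Adgrf2 the ranges were 0.225 to 0.450 CPM in KO and 0.0408 to 0.270 CPM in NLC. Adgrf4 had 26 reads in KO and 28 in NLC, Adgrf3 had 21 in KO and 12 in NLC, and Adgrf1 had 1 in KO and 6 in NLC. Summed over all 30 family genes, levels ranged from 208.3 to 228.3 TPM in KO and from 208.8 to 245.2 TPM in NLC, and the 10 receptors held 90.1% to 93.4% of this sum in KO and 90.4% to 92.0% in NLC.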
